A study of Mus musculus with 30 samples.

Results

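Ccl20, Ccl2, Ccl7, Ccl17 and Ccl25, 5 CC chemokine genes of the mouse, were followed through every deposited expression table that lists them, in all sample groups of the series. They are 5 of the 13456 genes that the 7 tables list in all. The series measured messenger RNA by sequencing in 30 libraries that form 10 groups of 3, described as biological replicates. Its title concerns how Smad4 pathways modulate Ccl20 induction and inflammation-induced carcinogenesis in the mouse colon.

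The first system was colon epithelium of C57BL/6J mice, from Smad4+ controls and from Smad4ΔLrig1 mice, a Smad4 knockout that carries Lrig1 in its name. The labels give neither the Cre allele, nor its induction, nor the age of the animals. The second system was a culture labelled IMCfl/fl Smad4+ colonocytes, either as a control or with TNF, with TGFB1 and BMP2 together, or with TNF, TGFB1 and BMP2 together. Doses and times are not given for it, and the labels do not say whether its replicates were separate isolates or cultures of 1 line. The third system was colonoids, three-dimensional cultures of colon epithelium, from the lines L42, L43 and L46, each as a vehicle culture, with TNF, with TGFB1 and BMP2, or with all 3. The dose of TNF was 100 ng/mL, that of BMP2 10 ng/mL and that of TGFB1 3 ng/mL. Treatment times of the colonoids are not given. No Smad4 knockout was among the cultures, so the knockout and the ligands were not tested together.

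CC chemokines are small secreted proteins, named for a pair of adjacent cysteines, that direct the movement of leukocytes through G-protein-coupled receptors. Ccl20 binds Ccr6 and draws dendritic cells, T helper cells of the interleukin-17 type and B cells to the epithelium over lymphoid follicles. Ccl2 and Ccl7 are neighbours that draw monocytes through Ccr2, Ccl17 draws T cells through Ccr4, and Ccl25 draws T cells to the small intestine through Ccr9. TNF activates transcription factors of the NF-kB family, whereas TGFB1 and BMP2 act through receptor-activated SMAD proteins that pair with Smad4.

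In GRCm38 (GENCODE), all 5 genes are protein coding and lie on the plus strand. Ccl20 (ENSMUSG00000026166) lies at chr1:83116766-83119167. Ccl2 (ENSMUSG00000035385) lies at chr11:82035571-82037453 and Ccl7 (ENSMUSG00000035373) at chr11:82045712-82047525, 8258 bases further along. Gm17268, on the opposite strand, spans Ccl2 but is not listed in the tables. Ccl17 (ENSMUSG00000031780) lies at chr8:94810453-94812036. Ccl25 (ENSMUSG00000023235) lies at chr8:4325210-4360020, and 204 of its bases overlap Elavl1 on the opposite strand, which is listed. No source used here gives the strand setting of the authors' counting, and without it reads in such overlaps cannot be assigned with certainty.

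The RefSeq table of sequences before gene starts (GRCm38.p6) held Ccl20, Ccl17 and Ccl25. Ccl20 and Ccl17 are shown because, of these 3, they differed in opposite directions with TGFB1 and BMP2 in colonocytes. Ccl2 and Ccl7, which rose there too, had no entry. Each sequence is the 250 bases before the start, plus strand, 5′ to 3′. Capitals mark the NF-kB (kB) consensus site in Ccl20 (chr1:83116516-83116765) and the core SMAD letters CAGAC, or their complement GTCTG, in Ccl17 (chr8:94810203-94810452).
Ccl20: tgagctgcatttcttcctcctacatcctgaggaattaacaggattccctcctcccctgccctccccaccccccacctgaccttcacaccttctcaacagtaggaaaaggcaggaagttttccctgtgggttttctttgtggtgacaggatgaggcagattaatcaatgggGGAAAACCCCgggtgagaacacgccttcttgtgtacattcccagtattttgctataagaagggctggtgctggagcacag
Ccl17: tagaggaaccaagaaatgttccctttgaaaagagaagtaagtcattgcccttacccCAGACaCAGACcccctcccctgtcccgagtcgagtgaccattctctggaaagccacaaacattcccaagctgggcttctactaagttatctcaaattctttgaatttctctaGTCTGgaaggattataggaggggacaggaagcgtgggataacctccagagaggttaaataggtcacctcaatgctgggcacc
The kB match of Ccl20 lies on the minus strand, from 80 to 71 bases before the start. The Ccl17 matches to CAGAC begin 194 and 188 bases before the start on the plus strand and end 78 bases before it on the minus strand. Over both strands, 3.9% of 32851 such windows held a kB match and 42.2% held CAGAC. The letters TGANTCA of the AP-1 factors, in 6.75% of windows, and GGCGCC of a second SMAD element, in 9.59%, were searched too and were not found in the windows of these 3 genes. No match overlapped another motif. The first of the Ccl25 starts had 1 CAGAC and the second had none. These matches are descriptions of letters, and binding was not measured.

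Recovered read totals were 23173869 to 28629452 in colon, 21629011 to 42873250 in colonocytes and 42232242 to 61720211 in colonoids. Levels are in counts per 1000000 reads (CPM) scaled by the authors, and 1 read was worth at most 0.0457 CPM. The targeted gene matched the labels: Smad4 stood at 144 ± 10.4 CPM in control colon and at 51.0 ± 7.12 CPM in knockout colon (SD, n = 3 each). Colon and colonoids listed all 14 markers of epithelium. The cultures labelled colonocytes went against their name on these lists. They listed 3 or 4 of the 14 epithelial markers, at 27.3 to 49.9 CPM in all, beside 8 of 10 stromal markers at 6770 to 7814 CPM. They are called by their label here. In every bulk sample, fewer cells of a type and less RNA per cell cannot be told apart.

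Ccl20 was listed in 6 of the 7 tables, Ccl2 in 5, Ccl7 in 4, Ccl17 in 2 and Ccl25 in all 7. In colon epithelium only Ccl20 and Ccl25 were listed, so Ccl2, Ccl7 and Ccl17 have no value there. In the colonoid table of TGFB1 with BMP2 against vehicle only Ccl25 was listed. The tables appear to hold only genes above a low level: the third-highest CPM of any listed gene was at least 1.15 to 1.47, depending on the table. A gene that is not listed therefore has no value here, and it is not taken as 0. A gene that is near or under that floor in 1 group is listed through the other group, so its difference is conditional on the listing. Among the members this holds for Ccl17 in colonocytes, for Ccl7 in colonoids, for Ccl20 in colon and, in part, for Ccl20 and Ccl2 in colonoids with TNF. In colonocytes it also holds for Ccl20 when TGFB1 with BMP2 is compared with control.

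Loss of Smad4 in the colon went with more Ccl20 and less Ccl25. Ccl20 was 1.25, 1.37 and 1.77 CPM in controls, and the knockout libraries had 2.85, 7.03 and 4.04 CPM. Every knockout library was above every control library, and the knockout libraries were spread more widely. Of the controls 2 lay under the floor of this table (1.47 CPM), so the listing rests on the knockout libraries. The means were 1.46 ± 0.275 and 4.64 ± 2.15 CPM (SD, n = 3 each), a ratio of 3.17. The difference on log2(CPM + 1) was 1.13 (SE 0.245, limma adjusted p = 0.00559). Of 11607 genes tested, 39.7% passed at an adjusted p under 0.05, so a call in this comparison is common.

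Ccl25 stood at 11.3, 6.10 and 7.32 CPM in controls and at 2.14, 2.42 and 2.53 CPM in knockouts. The groups did not overlap, and here the controls were the more variable. The knockout mean was 28.7% of the control mean, 3.48-fold lower, and log2(CPM + 1) fell by 1.42 (SE 0.1996, adjusted p = 0.000733). Markers of small intestine epithelium moved with Ccl25: the 5 listed of 10 (Fabp6, Fabp2, Sis, Alpi and Gata4) summed to 504 to 587 CPM in controls and 186 to 411 CPM in knockouts. Markers of follicle-associated epithelium and M cells, where Ccl20 is typically made, summed to 147 to 159 CPM in controls and 187 to 210 CPM in knockouts over the 3 listed of 6. Only Tnfrsf11a was higher, at 103 and 152 CPM on average, while Spib stood at 4.38 and 3.38 CPM and Ccl9 at 47.3 and 42.5 CPM. Gp2, which defines M cells, was not listed. The 14 epithelial markers summed to 32246 to 35286 CPM in controls and 23233 to 27970 CPM in knockouts. The 5 listed of 12 leukocyte markers summed to 39.7 to 54.2 and 37.2 to 48.5 CPM. The part of the cell makeup in either result was not tested.

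**Figure D1:**
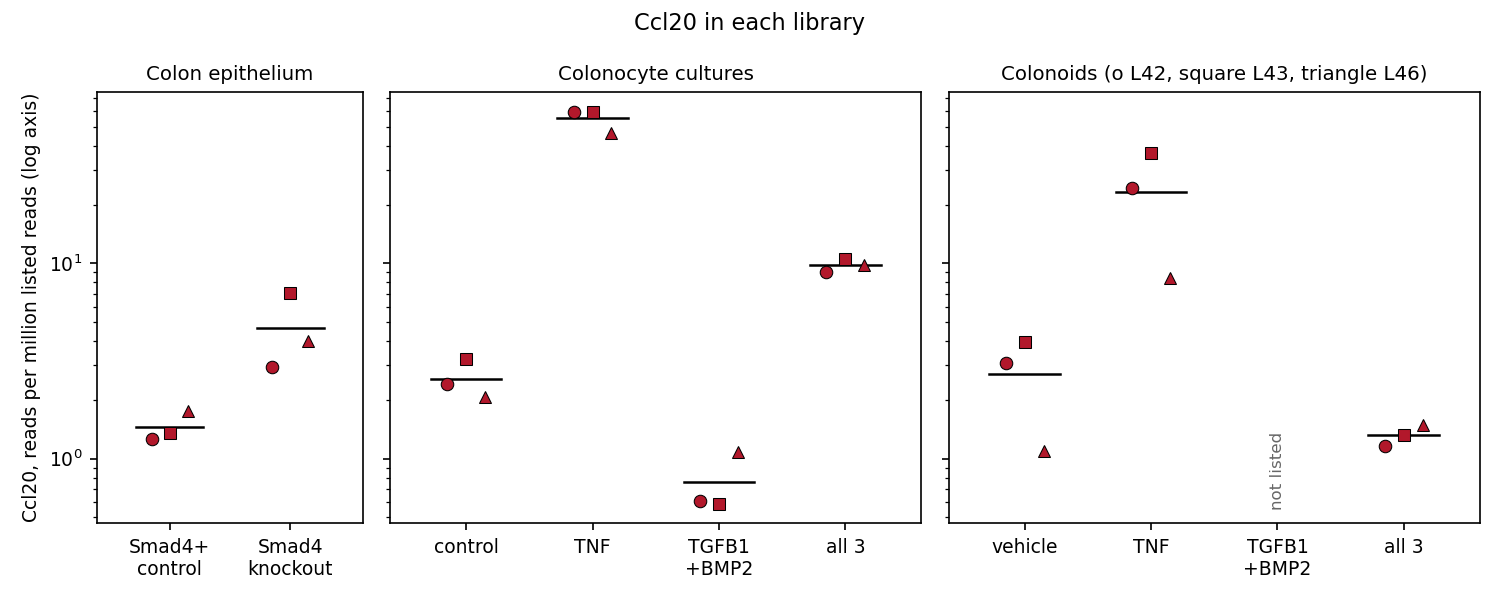
Ccl20 in each library of the 9 groups with a value, as reads per 1000000 listed reads on a log axis; points are libraries and bars are group means. TNF colonocytes average 55.3 and colonocytes with TGFB1 and BMP2 average 0.760.

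TNF raised Ccl20, Ccl2 and Ccl7 in the cultures labelled colonocytes, while Ccl25 and Ccl17 did not pass the test. Ccl20 stood at 2.38, 3.18 and 2.06 CPM in controls and at 60.1, 60.8 and 46.9 CPM with TNF. The lowest TNF library was far above the highest control. The ratio of means was 22.0, and the log2(CPM + 1) difference was 4.01 (SE 0.132, limma adjusted p = 2.05e-08), against 6.28% of 11586 genes called. Ccl2 stood at 81.4, 77.3 and 68.9 CPM in controls and at 1151, 1210 and 985 CPM with TNF, a ratio of 14.7. Ccl7 stood at 10.2, 10.0 and 10.4 CPM in controls and at 109, 110 and 100 CPM with TNF, a ratio of 10.4. Neither gene's groups overlapped. Their differences were 3.86 (SE 0.0781) and 3.26 (SE 0.0623), both with an adjusted p of 2.17e-10.

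Ccl25 stood at 9.48, 8.67 and 11.8 CPM in controls and at 9.71, 9.27 and 10.5 CPM with TNF. These ranges overlapped, and the difference was −0.01 (SE 0.112, adjusted p = 0.971). Ccl17 is not listed in this comparison's table. Joining the libraries of the tables that list it gave a difference of 0.13 for TNF (SE 0.129, adjusted p = 0.659), and the ratio of reads was 1.92 with a 95% counting interval of 0.955 to 4.04. Beside the Ccl20 rise, 2 of 6 markers of follicle-associated epithelium and M cells were listed (Tnfaip2 and Ccl9, without Gp2). They summed to 151 to 156 CPM in controls and 398 to 492 CPM with TNF. Nearly all of that was Tnfaip2, at 152 and 449 CPM on average, while Ccl9 reached at most 2.17 and 2.99 CPM. Their part in the result was not tested.

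With TGFB1 and BMP2 alone, the members differed in direction in the same cultures. Ccl20 was lower, Ccl2 and Ccl7 rose, Ccl17 was higher, and 30.2% of 11620 genes were called. Ccl20 stood at 2.34, 3.13 and 2.02 CPM in controls and at 0.627, 0.606 and 1.12 CPM with the ligands. No treated library reached the lowest control. All treated libraries lay under the floor of this table (1.26 CPM), so the listing fixed the direction and the lack of overlap. The treated mean was 31.4% of the control mean, 3.19-fold lower, on 77 reads in place of 248. Conditional on the listing, the difference was −0.97 (SE 0.164, limma adjusted p = 0.00051). The 3 listed follicle-associated and M cell markers summed to 149 to 153 CPM in controls and 118 to 132 CPM with the ligands. Only Tnfaip2 was lower, at 150 and 115 CPM on average, while Ccl9 stood at 1.47 and 1.92 CPM and Sox8 at 0.392 and 8.03 CPM. Their part in the result was not tested.

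Ccl2 stood at 80.1, 76.0 and 67.6 CPM in controls and at 123, 121 and 111 CPM with TGFB1 and BMP2, a ratio of 1.59. Ccl7 stood at 10.1, 9.83 and 10.2 CPM in controls and at 15.7, 19.3 and 17.5 CPM with the ligands, a ratio of 1.74. In both genes all treated libraries were above all controls. The differences were 0.66 (SE 0.0676, adjusted p = 6.09e-06) and 0.74 (SE 0.0920, adjusted p = 3.75e-05). Ccl25 stood at 9.33, 8.52 and 11.5 CPM in controls and at 9.84, 11.3 and 9.33 CPM with the ligands. Its groups overlapped and its difference was 0.05 (SE 0.116, adjusted p = 0.763).

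Ccl17 was close to the detection limit without TGFB1 and BMP2. It stood at 0.128, 0.140 and 0.134 CPM in controls, 3 to 5 reads a library, and at 1.54, 1.67 and 1.82 CPM with the ligands. The groups did not overlap and each was tight, but all controls lay under the floor of the table, so the listing itself fixed that the treated group be higher. The 13 control reads against 174 treated reads gave a ratio of 11.6, with a 95% counting interval of 6.62 to 22.3. Its mean lay under the minimum of 1 CPM used elsewhere, so it was tested in a fit with no such minimum, chosen after seeing the data. There the difference was 1.24 (SE 0.140, limma adjusted p = 1.68e-05), with 30.3% of 11628 genes called. On log2(CPM + 1) the change of such a low gene is understated, and the log2 fold change in the authors' deposited table is 3.60.

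Added to TNF, TGFB1 with BMP2 lowered Ccl20, Ccl17 was higher, and 31.9% of 11567 genes were called. Ccl20 stood at 57.8, 58.4 and 45.1 CPM with TNF and at 9.30, 10.8 and 10.1 CPM with all 3 ligands. The groups were far apart and the treated libraries were close together. The mean was 5.34-fold lower, 18.7% of the level with TNF alone, and the difference was −2.30 (SE 0.0992, adjusted p = 1.05e-08). Ccl17 stood at 0.270, 0.339 and 0.116 CPM with TNF and at 2.68, 2.43 and 2.98 CPM with all 3 ligands. All TNF libraries lay under the floor of this table (1.30 CPM), so the listing fixed the direction and the lack of overlap. The 27 reads against 243 gave a ratio of 9.78 with a 95% counting interval of 6.56 to 15.1. The difference of 1.58 (SE 0.144, adjusted p = 3.78e-06) is conditional on that.

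For the monocyte chemokines Ccl2 and Ccl7, no fall passed the test under the same addition. Ccl2 stood at 1105, 1162 and 947 CPM with TNF and at 1121, 1038 and 919 CPM with all 3 ligands. The ranges overlapped and the difference was −0.06 (SE 0.0797, adjusted p = 0.59). Ccl7 stood at 104, 106 and 96.4 CPM with TNF and at 129, 144 and 108 CPM with all 3 ligands. The ranges did not overlap, the ratio was 1.24, and the difference of 0.30 passed (SE 0.0842, adjusted p = 0.016). That call was lost without replicate 1 of the all-ligand group (0.29, adjusted p = 0.059), without replicate 2 (0.21, adjusted p = 0.0767) and when total listed reads set the scale (0.22, adjusted p = 0.0556). Ccl25 stood at 9.33, 8.91 and 10.1 CPM and at 10.7, 11.0 and 9.90 CPM, with overlap and a difference of 0.15 (adjusted p = 0.242). The follicle-associated and M cell markers summed to 383 to 474 CPM with TNF and to 275 to 315 CPM with all 3 ligands. On average Tnfaip2 stood at 431 and 287 CPM and Ccl9 at 2.52 and 1.98 CPM, while Sox8 stood at 0.804 and 8.85 CPM. Their part in the Ccl20 result was not tested.

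**Figure D2:**
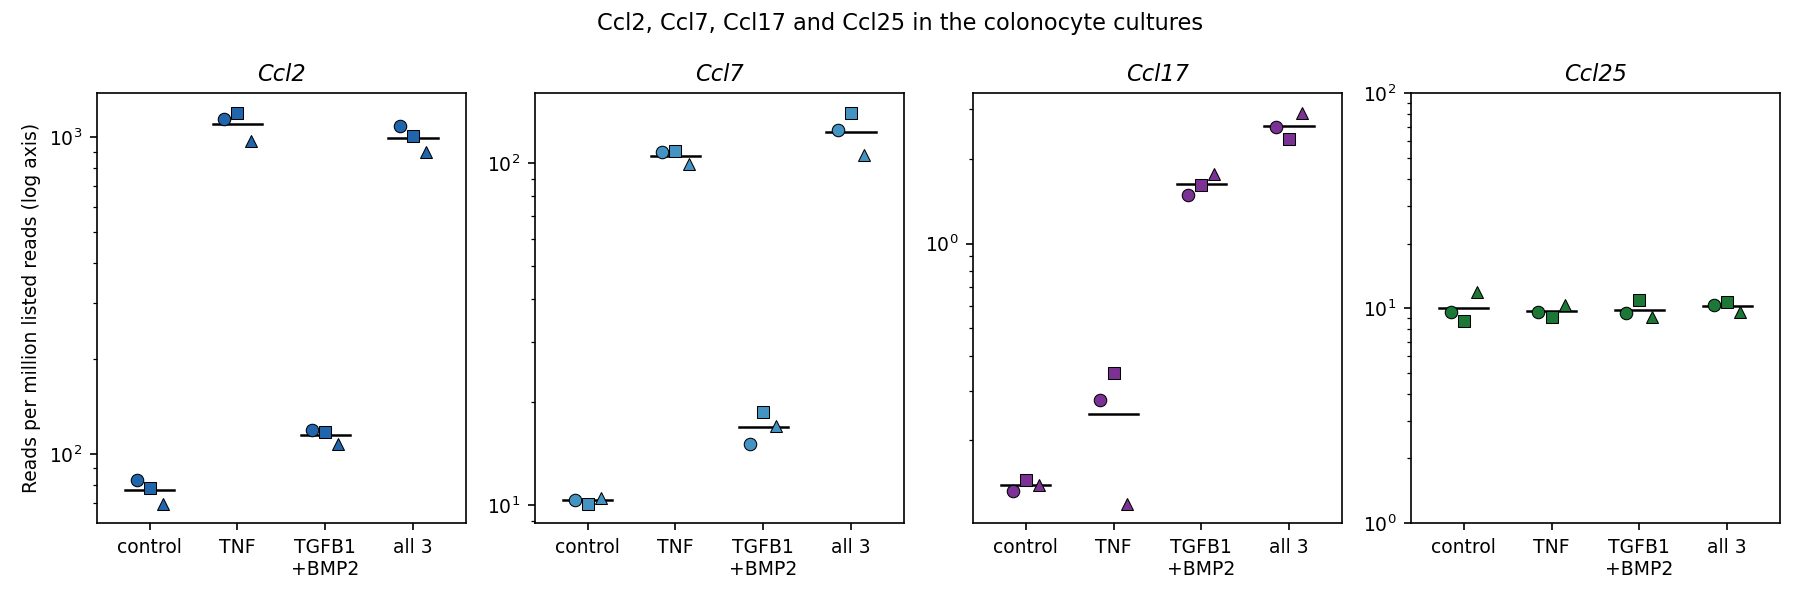
Ccl2, Ccl7, Ccl17 and Ccl25 in the colonocyte cultures, as reads per 1000000 listed reads on a log axis whose range differs by panel; points are libraries and bars are means. Ccl2 and Ccl7 are high in both TNF groups, Ccl25 is level, and Ccl17 is high in both groups with TGFB1 and BMP2.

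Comparisons that no single table holds were fitted on reads recovered from the tables. With TGFB1 and BMP2 present throughout, TNF still raised Ccl20 by 2.66 (SE 0.137, adjusted p = 2.08e-09), Ccl2 by 3.13 (adjusted p = 2.16e-13) and Ccl7 by 2.81 (adjusted p = 2.77e-12), against 4.13% of 11434 genes called. Ccl25 differed by 0.08 (adjusted p = 0.809). Ccl17, in the fit on the tables that list it, differed by 0.48 (SE 0.129, adjusted p = 0.0428; 4.14% of 11501 genes called), on a read ratio of 1.61 with a counting interval of 1.32 to 1.97. That Ccl17 call held without replicate 3 of the controls or replicate 2 or 3 of the TNF group, and was lost without any other single library, with adjusted p from 0.0409 to 0.172 over the 12 fits.

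Against untreated cultures, all 3 ligands together left Ccl20 3.81-fold, Ccl2 13.0-fold, Ccl7 11.9-fold and Ccl17 18.9-fold higher on group means. The log2(CPM + 1) differences were 1.70 for Ccl20 (adjusted p = 4.07e-08), 3.80 for Ccl2 (adjusted p = 3.16e-15) and 3.55 for Ccl7 (adjusted p = 3.15e-14), with 44.2% of genes called. Ccl17, under the same condition of its listing, differed by 1.71 (adjusted p = 1.62e-08, 44.4% called in its fit) and Ccl25 by 0.13 (adjusted p = 0.318).

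The TNF effect on Ccl20 was smaller when TGFB1 and BMP2 were present, on the scale tested. TNF raised Ccl20 21.5-fold without them and 12.9-fold with them. On the same group means it was lower with TGFB1 and BMP2, 3.38-fold without TNF, conditional on the listing, and 5.65-fold with TNF. The interaction on log2(CPM + 1) was −1.34 (SE 0.194, adjusted p = 0.0384), and Ccl20 was the 1 gene called, 0.00875% of 11434. It depended on the scale: a pseudocount of 0.25 gave −0.96 (adjusted p = 0.752) and edgeR's quasi-likelihood test on the reads gave −0.64 (adjusted p = 0.999). It was also lost in 8 of 12 fits that left out a library: replicate 1 of the controls, 1 or 2 of TNF, any of TGFB1 with BMP2, and 1 or 3 of all ligands, with adjusted p from 0.0505 to 0.264 and differences from −1.40 to −1.21. The interactions of Ccl2 (−0.73, adjusted p = 0.0513), Ccl7 (−0.44, adjusted p = 0.948), Ccl25 (0.09) and Ccl17 (0.35) did not pass. That of Ccl2 did pass with total listed reads as the scale (−0.72, adjusted p = 0.0483) and with DESeq2 (−0.73, adjusted p = 1.95e-05). With the replicate number as a block, limma called 30 genes, among them Ccl2 (−0.73, adjusted p = 8.03e-08) and Ccl20 (−1.34, adjusted p = 0.000768).

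In colonoids the lines differed in how much chemokine RNA they held, and TNF acted in the same direction in each line. In the order L42, L43 and L46, Ccl20 stood at 3.07, 3.90 and 1.11 CPM with vehicle and at 24.0, 36.6 and 8.57 CPM with TNF. Every TNF library was above every vehicle library, and L46 was lowest in both groups. Within a line the ratio was 7.82, 9.38 and 7.70. Without a term for the line the difference of 2.58 did not pass (SE 0.528, adjusted p = 0.304; 0.137% of 11688 genes called), whereas with the line as a block it did (SE 0.131, adjusted p = 1.97e-05; 6.14% called). Between lines the highest Ccl20 level was 3.51 times the lowest with vehicle.

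Ccl2 stood at 0.692, 1.76 and 0.377 CPM with vehicle and at 4.89, 9.61 and 2.82 CPM with TNF. The groups did not overlap and L43 was again the highest line. Of the vehicle libraries 2 lay under the floor of this table (1.25 CPM), so the listing rests on the TNF libraries. Within a line the ratio was 7.06, 5.45 and 7.47, and the difference was 1.74 (adjusted p = 0.444; with the line as a block, SE 0.118 and adjusted p = 6.76e-05). Ccl25 stood at 4.15, 3.92 and 2.90 CPM with vehicle and at 4.89, 5.35 and 3.40 CPM with TNF. These overlapped, and the difference of 0.24 passed neither without the block (adjusted p = 1) nor with it (adjusted p = 0.215). Of 7 dendritic cell markers, 2 were listed here (H2-Ab1 and Cd74, both also made by stimulated epithelium, without Itgax, Zbtb46 or Flt3), and they summed to 3.29 to 7.19 CPM with vehicle and 15 to 33.5 CPM with TNF, most of it Cd74. The 3 listed of 6 markers of follicle-associated epithelium and M cells (Tnfaip2, Tnfrsf11a and Ccl9, without Gp2) stood at 115 to 132 and 157 to 182 CPM. Their part in the result was not tested.

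Adding TGFB1 and BMP2 to TNF lowered Ccl20 in every colonoid line, and the lines then lay close together. Ccl20 stood at 21.9, 33.4 and 7.80 CPM in L42, L43 and L46 with TNF and at 1.29, 1.48 and 1.56 CPM with all 3 ligands. The groups did not overlap, and with all 3 ligands L46 was the highest line where it had been the lowest. The all-ligand libraries held 55, 69 and 76 Ccl20 reads, so that order is uncertain. The ratio of highest to lowest line was 4.28 with TNF and 1.21 with all 3 ligands. The mean was 14.5-fold lower, and 16.9-, 22.5- and 4.98-fold lower within the lines. The difference was −2.96 (SE 0.466, adjusted p = 0.00387), against 54.1% of 11595 genes called. The follicle-associated and M cell markers stood at 143 to 166 CPM with TNF and 57.4 to 108 CPM with all 3 ligands, and each of the 3 listed was lower on average. Of the dendritic markers Cd74 stood at 18.3 and 4.95 CPM and H2-Ab1 at 1.63 and 2.49 CPM. The 14 epithelial markers summed to 12490 to 14129 CPM with TNF and to 27391 to 34035 CPM with all 3 ligands. The part of these shifts in the results of this comparison was not tested.

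Ccl7, listed in this colonoid table only, was higher with all 3 ligands. It stood at 0.749, 1.09 and 0.483 CPM with TNF and at 7.37, 18.3 and 2.37 CPM with all 3 ligands. The lines kept their order, and the ratio was 9.84, 16.8 and 4.90 within the lines. All TNF libraries lay under the floor of this table (1.17 CPM), so the listing fixed the direction and the lack of overlap. Conditional on that, the difference was 2.22 (SE 0.585, adjusted p = 0.0186). The call was lost without the TNF library of L42 (2.21, adjusted p = 0.0559) or of L46 (2.09, adjusted p = 0.0633), and without the all-ligand library of L42 (2.20, adjusted p = 0.0547).

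Ccl2 stood at 4.45, 8.77 and 2.56 CPM with TNF and at 7.26, 11.6 and 3.71 CPM with all 3 ligands. The groups overlapped because the lines differ, but each line was higher with all 3 ligands, by 1.63, 1.33 and 1.45 times. The difference of 0.46 did not pass without the line (adjusted p = 0.433) and passed with the line as a block (SE 0.121, adjusted p = 0.0302; 60.9% called).

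Ccl25 was lower in colonoids with TGFB1 and BMP2, with or without TNF. It stood at 3.75, 3.60 and 2.65 CPM with vehicle and at 1.87, 1.51 and 1.59 CPM with TGFB1 and BMP2. No treated library reached the lowest vehicle library, and the mean was 2.01-fold lower. The difference was −0.70 (SE 0.172, adjusted p = 0.0141; 56.7% of 11633 genes called), a call lost without the vehicle library of L42 (−0.63, adjusted p = 0.0589) or of L43 (−0.65, adjusted p = 0.0517). With TNF present, Ccl25 stood at 4.45, 4.88 and 3.09 CPM and, with all 3 ligands, at 1.39, 1.40 and 1.83 CPM. The groups did not overlap, the mean was 2.69-fold lower and the difference was −1.01 (SE 0.192, adjusted p = 0.00647). The 4 listed of 10 markers of small intestine epithelium summed to 27.5 to 130 CPM with vehicle and 21.8 to 78.4 CPM with TGFB1 and BMP2. Most of that lay in Lyz1, at 46.7 and 8.37 CPM on average, while Alpi stood at 11.6 and 34.1 CPM, Fabp2 at 16.2 and 13.2 CPM and Sis at 1.94 and 0.778 CPM. The 14 epithelial markers summed to 12091 to 13504 CPM with vehicle and 27415 to 37166 CPM with TGFB1 and BMP2. The part of these shifts in the Ccl25 result was not tested.

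Against vehicle, all 3 ligands left colonoid Ccl2 7.17-fold higher (2.17, SE 0.459, adjusted p = 0.00332; 64.2% of 11476 genes called, in a fit on the tables that list it). Ccl20 in the same fit differed by −0.41 (SE 0.475, adjusted p = 0.466), at 0.488 times vehicle on group means. Ccl25 differed by −0.76 (SE 0.169, adjusted p = 0.00308), with 64.1% of 11413 genes called. Scaling colonoid libraries to total listed reads moved the median of all genes by −0.24 to −0.27 where TGFB1 and BMP2 were compared with their absence. Relative to the median, Ccl25 then differed by −0.61 for TGFB1 with BMP2 and −0.92 for their addition to TNF, Ccl20 by −2.89 and Ccl7 by 2.32.

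**Figure D3:**
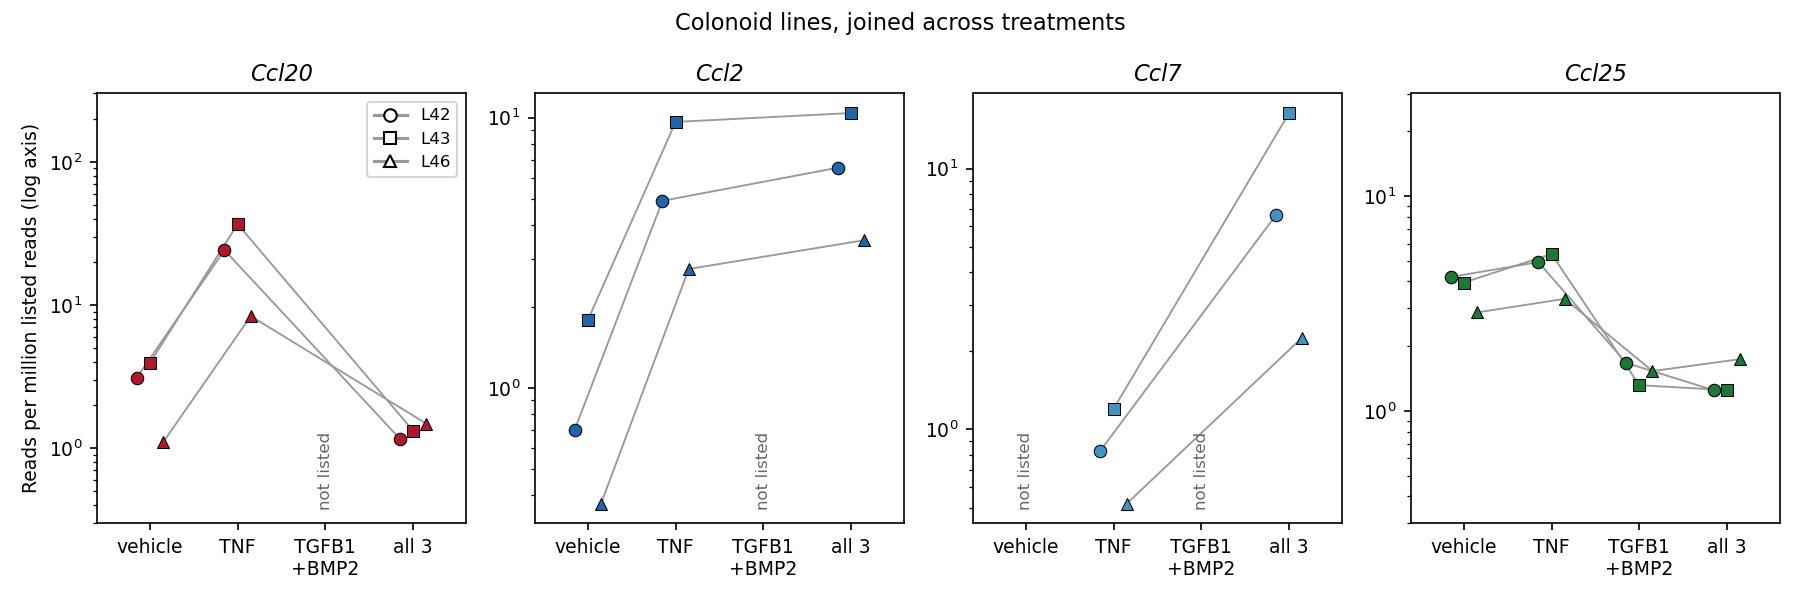
Members in the colonoid lines L42, L43 and L46, as reads per 1000000 listed reads on a log axis; each line joins the libraries of a colonoid line, skipping groups whose table does not list the gene. The Ccl20 lines lie apart with vehicle and TNF and come together with all 3 ligands, around a mean of 1.32.

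**Figure D4:**
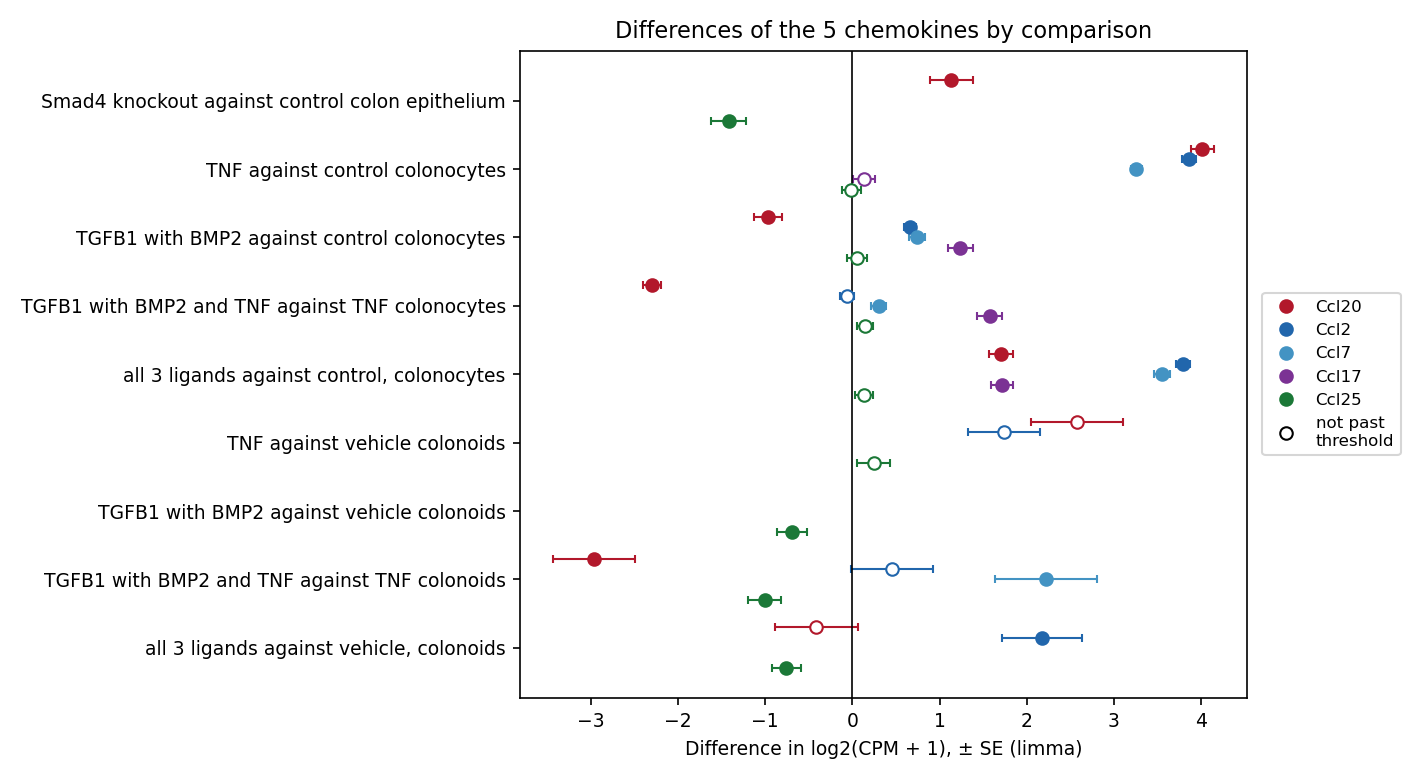
Differences in log2(CPM + 1) for the members over 9 comparisons; bars are standard errors and filled points passed at an adjusted p under 0.05. Ccl20 lies highest with TNF in colonocytes, at 4.01, and lowest for TGFB1 with BMP2 added to TNF in colonoids, at −2.96.

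Per kilobase of exon, on a scale of reads per 1000000 listed reads, Ccl2 was the most abundant member of TNF-treated colonocytes at 968, ahead of Ccl7 at 131 and Ccl20 at 38.9, with Ccl25 at 1.30 and Ccl17 at 0.483. In TNF-treated colonoids Ccl20 led at 16.3, before Ccl2 at 5.07, Ccl7 at 1.06 and Ccl25 at 0.609. The place of Ccl25 depends on the length used, 7445 bases over all its annotated exons against 801 for Ccl7. Before division by length, Ccl25 stood at 4.54 and Ccl7 at 0.848 in these colonoids. Levels set across tables that were normalised apart are approximate. On that scale without the length, mean Ccl20 ran from 55.3 in TNF colonocytes through 23.1 in TNF colonoids, 9.78 in colonocytes with all 3 ligands and 4.66 in knockout colon. It went on to 2.71 in vehicle colonoids, 2.57 in control colonocytes, 1.45 in control colon, 1.32 in colonoids with all 3 ligands and 0.760 in colonocytes with TGFB1 and BMP2. Neighbours whose libraries overlapped were TNF colonoids with all-ligand colonocytes, knockout colon with vehicle colonoids, vehicle colonoids with control colonocytes, and control colon with all-ligand colonoids. Mean Ccl25 was 9.70 to 10.2 in the 4 colonocyte groups, whose libraries overlapped, and 8.19 in control colon.

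The other genes of the CC family were mostly absent from the tables. Of 24 CC ligands, 7 were tested in colon, of which 3 were higher and 1 lower in the knockout (median difference 0.19, against 0.00196 for all genes, of which 39.7% were called). The higher ones beside Ccl20 were Ccl8, a monocyte attractant, from 1.09 to 2.40 CPM (0.73, adjusted p = 0.0171; its listing rests on the knockout), and Ccl28, a mucosal chemokine of plasma cells, from 211 to 292 CPM (0.47, adjusted p = 0.0224). With TNF 4 of 7 rose in colonocytes and none fell, against 6.28% of all genes called, and the fourth was Ccl5, which draws T cells, from 10.2 to 17.4 CPM (0.71, adjusted p = 0.000685). With TNF in colonoids 0 of 7 passed without the line and, with the line as a block, 3 of 7 were higher (Ccl20, Ccl2 and Ccl9, the last at 0.48 with an adjusted p of 0.0157), where 6.14% of all genes were called. These counts include the members, which were chosen with earlier results of these data known. Without the 5 members, 2 of 5 ligands were higher in the knockout, 1 of 3 with TNF in colonocytes and 1 of 4 in the blocked colonoid fit. In colonoids TGFB1 with BMP2 lowered 3 of the 4 ligands tested and raised none (median −1.58), where 56.7% of all genes were called. The other 2 were Ccl28, from 56.3 to 11.6 CPM (−2.14, adjusted p = 0.00232), and Ccl6, from 36.2 to 4.12 CPM (−2.95, adjusted p = 0.00481). Added to TNF they lowered 5 of 7, and 1, Ccl7, was higher, where 54.1% of all genes were called. With the line as a block 4 were lower and 2 higher, where 60.9% were called, since Ccl9 no longer passed (adjusted p = 0.0735) and Ccl2 did. Without the members, 2 of 3 ligands were lower with TGFB1 and BMP2 in colonoids. On the addition to TNF 3 of 3 were lower, and 2 of 3 with the line as a block.

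Of 18 CC receptors the tables list Ccrl2, an atypical receptor, and, in colonoids, Ccr1, which Ccl7 among others can bind. Ccr2, Ccr4, Ccr6 and Ccr9 were not listed. With TNF in colonoids Ccr1 stood at 4.51 CPM with vehicle and 7.03 CPM with TNF, and Ccrl2 at 1.2 and 2.03 CPM. With the line as a block both passed (0.54, adjusted p = 0.00719, and 0.46, adjusted p = 0.0467), and without it neither did. Ccrl2 rose from 0.495 to 2.10 CPM with TNF in colonocytes (1.06, adjusted p = 0.00173). It fell from 2.01 to 0.948 CPM when TGFB1 and BMP2 were added to TNF (−0.64, adjusted p = 0.00986), and in colonoids from 1.85 to 0.322 CPM (−1.12, adjusted p = 0.00591). In these 3 tables its listing rests on the TNF libraries, and it does so in the colonoid table of TNF against vehicle too. There the median vehicle library stood at 1.23 CPM, under the floor of 1.25 CPM.

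Of the 19 NF-kB pathway genes, 12 of 17 tested rose and none fell with TNF in colonocytes (median 0.50), against 6.28% of all genes called. Nfkbia, the NF-kB inhibitor and target, went from 36.3 to 174 CPM there (2.23, adjusted p = 1.33e-08). Adding TGFB1 and BMP2 to TNF moved 1 up and 2 down of 17 (1 and 4 when total listed reads set the scale), where 31.9% of all genes were called, and Nfkbia differed by 0.01 (adjusted p = 0.869). The part of NF-kB in the Ccl20 result was not tested. In colonoids that addition raised 11 of 18 and lowered 1 (5 and 2 when total listed reads set the scale), where 54.1% of all genes were called. The lower one was Nfkbia, from 340 to 205 CPM (−0.73, adjusted p = 0.0104). Of 8 SMAD genes, TGFB1 with BMP2 raised 4 of 8 in colonocytes and 4 of 7 in colonoids and lowered none. Scaled to total listed reads, 3 were higher in colonocytes, and in colonoids 3 were higher and 2 lower. Of all genes 30.2% and 56.7% were called in these comparisons, and the colonoid count lies near that share. Smad7, the inhibitory SMAD that TGFB1 and BMP2 induce, went from 40.3 to 161 CPM in colonocytes (1.98, adjusted p = 5.53e-10) and from 13.1 to 151 CPM in colonoids (3.40, adjusted p = 0.0011). In the knockout colon 3 of 7 SMAD genes fell, near the 39.7% of all genes called, 1 of them the deleted Smad4, and Smad7 went from 33.8 to 18.5 CPM (−0.84, adjusted p = 0.000766).

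Genes with the most similar pattern over the 12 colonocyte libraries were sought by Pearson r of log2(CPM + 1), given with no test since the libraries share treatments. For Ccl20 they were Gsdmd (0.992), Tnip3 (0.991), Rnd1 (0.990), H2-T10 (0.987) and Mcc (0.984). For Ccl2 they were Nfkbia (0.998), Nfkb2 (0.995), Ccl7 (0.993), Nfkbie (0.993) and Nfkb1 (0.992), and for Ccl7 they were Ccl2 (0.993), Nfkbia (0.993), Tnfaip3 (0.992), Nfkbie (0.988) and Csf1 (0.986). Ccl20 was less like its fellow members, with r of 0.853 to Ccl2 and 0.804 to Ccl7. For Ccl25 the nearest in colonocytes were Zfp617 (0.917), Vcan (0.917), Actr6 (0.865), Mrpl32 (0.854) and Emc2 (0.849). In colonoids, with line means subtracted, they were Serhl (0.994), Spice1 (0.990), Cd177 (0.988), C4bp (0.987) and Ostc (0.987). In both systems together, by the smaller r, they were Actr6 (0.865), Emc2 (0.849), Nudt5 (0.842), Cse1l (0.832) and Seh1l (0.827). Mean Ccl25 was level over the colonocyte groups, so its r in colonocytes rest mainly on differences between libraries of a group.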

How the data were processed

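Libraries came from poly(A)-selected RNA with a stranded kit, per the labels. The submitters' processing notes name TopHat2 2.1.0, HTSeq 0.5.4p5 and edgeR 3.4.2 with mm10. Their roles and the counting strand are stated in no source used here. Each of 7 deposited tables holds, per the file headers, 6 libraries as a signal in counts per 1000000 reads (CPM) scaled by effective library size, and the authors' log2 fold change, log2 CPM, p-value and false discovery rate. Values were whole multiples of 1 read in 100% of cases (within 0.05 of a read), so reads were recovered from the deposited CPM.

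The main test was limma 3.58.1 (R 4.3.3, eBayes with trend, two-sided) on log2(CPM + 1) within each table, for genes with a mean of at least 1 CPM, with Benjamini-Hochberg adjustment over all genes tested and a threshold of 0.05. Fold changes on this scale understate low genes. Contrasts across tables used recovered reads of genes listed in all 3 tables of a system, scaled by TMM. Ccl17, Ccl20 and Ccl2 needed fits with no minimum or on fewer tables, added after seeing the data. Alternatives were a pseudocount of 0.25, no minimum, total listed reads as scale, edgeR 4.0.16, DESeq2 1.42.0, the replicate as a block, and each library left out. The script was tested on simulated data.

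The replicate number was used as a pairing only where it names a colonoid line: the 18 correlations of same-line deviations ran from 0.271 to 0.940, and blocked values are printed where they change a call. Named genes were the members, the 5 most similar genes to each, listed CC ligands and receptors, Smad4, Nfkbia and Smad7. Members and lists were chosen with earlier results of these data known. P-values measure the spread between the 3 samples of a group, pooled over all groups in a fit. With the line as a block they measure the spread left after line differences are removed. Counting intervals cover counting error only.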

Additional observations from a re-analysis of the deposited data

Results flagged for a closer look

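In the main fit, the effect of TNF on Ccl20 in the colonocyte cultures was smaller with TGFB1 and BMP2 than without them. The interaction on log2(CPM + 1) was −1.34 (SE 0.194, limma adjusted p = 0.0384), with TNF ratios of 21.5 and 12.9 on group means. The other tools gave smaller values: edgeR's quasi-likelihood test gave −0.64 (adjusted p = 0.999) and DESeq2 gave −0.64 (adjusted p = 1). The 3 libraries of TGFB1 with BMP2 hold 77 Ccl20 reads in all.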

How the results depend on the processing

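Of 27 called differences of the members, 159 of 164 alternative settings kept direction and side of the threshold, as did 201 of 225 fits that left out a library. Scaling to total listed reads moved the share of higher genes among those called from 52.6% to 29.8% (TGFB1 with BMP2, colonocytes), 51.2% to 29.2% (added to TNF), 49.5% to 28.4% and 48.8% to 28.1% (the same in colonoids), 73.4% to 59.9% (TNF, colonocytes), 74.4% to 62.2% (all ligands against TGFB1 with BMP2, colonocytes), 53.2% to 26.9% (against control) and 48.7% to 28.4% (against vehicle). It also gave Ccl25 −0.024 for TGFB1 with BMP2 in colonocytes, a reversed sign on an uncalled difference, Ccl7 0.22 for the addition to TNF in colonocytes, and Ccl2 −0.72 for the interaction. The interaction count in colonocytes was 2 with that scale, 0 with the pseudocount of 0.25, 0 with edgeR and 13 with DESeq2. Ccl20's interaction was −0.96 with that pseudocount, −0.64 with edgeR and −0.64 with DESeq2, Ccl2's was −0.73 with DESeq2, and Ccl17's reversed to −0.23 with edgeR, uncalled. The pseudocount gave Ccl17 0.64 for all ligands against TGFB1 with BMP2 in colonocytes. The cause was not tested.

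For TNF in colonoids, DESeq2 called 116 genes and gave Ccl20 3.09 and Ccl2 2.61, and a fit on all 12 libraries called 7. For all ligands against TGFB1 with BMP2 in colonoids, 20 genes were called, 13 with edgeR and 167 with DESeq2, and the colonoid interaction had 0 calls with limma and 1 with DESeq2. With the line as a replicate block, colonoid counts were 718 for TNF and 254 for all ligands against TGFB1 with BMP2, and Ccl20 was 2.58, Ccl2 1.74 and, for the addition to TNF, Ccl2 0.46. In colonocytes the labels do not say what a shared number stands for, yet 12 of 12 libraries correlated best with their own number. Same-number correlations ran from 0.049 to 0.526 there, and the main colonocyte tests left the number out. The replicate block there gave counts of 2356 for TNF, 998 for all ligands against TGFB1 with BMP2 and 30 for the interaction, where Ccl2 at −0.73 gained a call (adjusted p = 8.03e-08) and Ccl20 kept its own at −1.34 (adjusted p = 0.000768).

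Leaving out each library in turn gave counts of 2708 to 4915 for the knockout, 400 to 1217 for TNF in colonocytes, 1 to 8 for TNF in colonoids, 4177 to 7558 for the addition to TNF in colonoids, 279 to 570 and 6 to 30 for all ligands against TGFB1 with BMP2 in colonocytes and colonoids, and 0 to 10 for the colonocyte interaction. Member differences ran from −0.10 to 0.10 (Ccl25, TNF), −0.031 to 0.17 (Ccl25, TGFB1 with BMP2), −0.15 to 0.015 (Ccl2, addition to TNF) and 0.21 to 0.41 (Ccl7, the same) in colonocytes. In colonoids they ran from −0.82 to −0.63 (Ccl25, TGFB1 with BMP2) and 1.60 to 2.85 (Ccl7, addition to TNF). For all ligands against TGFB1 with BMP2 in colonocytes Ccl17 ran from 0.43 to 0.54, and the interactions ran from −1.46 to −1.21 (Ccl20), −0.81 to −0.65 (Ccl2) and −0.028 to 0.17 (Ccl25). Depth limits Ccl17 most, at 3 to 5 reads in a control library.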
